A study of Homo sapiens with 6 samples.

Results

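The 10 integrin subunit genes examined here, ITGA1, ITGA2, ITGA3, ITGA5, ITGA11, ITGAV, ITGB1, ITGB3, ITGB4 and ITGB5, encode subunits of receptors for collagen, laminin and fibronectin. They were taken by symbol from the 19937 genes of the count table, all 10 matched an Ensembl identifier, and all 10 passed the filter on low counts. In U2OS cells silenced for SQLE, the collagen receptor subunits ITGA1 and ITGA11 and the laminin receptor subunit ITGB4 fell to 0.343, 0.454 and 0.302 times their control levels. ITGB1, the beta subunit shared by most of these receptors, had a fold change of 1.04, and ITGB3 and ITGB5 had 0.967 and 0.888, none of which passed the test. ITGA2, ITGA3, ITGA5 and ITGAV, with fold changes of 0.465, 0.751, 0.729 and 0.589, did not pass either. The test called 2.84% of all genes tested lower. With any 1 library of silenced cells left out, it called 0 of the 10 subunits.

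U2OS is an established human osteosarcoma line. Both groups carried a short hairpin RNA (shRNA) in a lentiviral pGIPZ vector and were kept as stable, puromycin-selected populations: 3 libraries of cells with the SQLE-shRNA (shSQLE) and 3 of cells with the scrambled-shRNA (shControl). Squalene epoxidase (SQLE) is an enzyme of cholesterol synthesis, and the comparison asked which transcripts change when it is silenced. Each group rests on a single hairpin, so effects of the hairpin or of the selected population cannot be told apart from those of silencing, and whether each library was grown as its own culture is not given in the sources used here. The p-values therefore measure the spread between these libraries, which may be technical.

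Integrins are heterodimers of an alpha and a beta chain that span the plasma membrane and bind extracellular matrix outside and the actin cytoskeleton inside. The alpha chain largely sets which ligand is bound. ITGA1, ITGA2 and ITGA11 pair with ITGB1 to bind collagens, ITGA3 pairs with ITGB1 to bind laminins, and ITGA5 pairs with ITGB1 to bind fibronectin. ITGAV pairs with ITGB1, ITGB3 or ITGB5 and binds ligands with the Arg-Gly-Asp (RGD) motif, such as vitronectin and fibronectin, whereas ITGB4 pairs only with ITGA6, as a laminin receptor that links to keratin filaments. In bone, collagen and fibronectin receptors anchor cells of the osteoblast lineage to the matrix these cells secrete. Unpaired chains are retained in the endoplasmic reticulum, so the surface level of a receptor is not given by the transcript of either chain alone.

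The promoters of the collagen-binding alpha subunits and of their common partner ITGB1 are shown because ITGA1 and ITGA11 passed the test while ITGB1 did not. ITGA1 (ENSG00000213949) occupies positions 52787916 to 52959209 of chromosome 5 (hg38, + strand), and ITGA2 (ENSG00000164171) follows it on the same strand from 52989340 to 53094779, 30130 bp downstream. ITGA11 (ENSG00000137809) is on chromosome 15 at 68296532 to 68432163, and ITGB1 (ENSG00000150093) on chromosome 10 at 32887273 to 33005792, both on the - strand. Below are 300 bases of each promoter from RefSeq (GRCh38.p14), 250 before and 50 after the transcription start, 5′ to 3′ on the strand of the gene. Capitals mark the letters of 3 motifs searched on both strands: the GC box bound by SP1 (GGGCGG), the AP-1 site (TGANTCA) and the TEAD site (GGAATG); matches may overlap.
ITGA1, chr5:52787666-52787965, + strand: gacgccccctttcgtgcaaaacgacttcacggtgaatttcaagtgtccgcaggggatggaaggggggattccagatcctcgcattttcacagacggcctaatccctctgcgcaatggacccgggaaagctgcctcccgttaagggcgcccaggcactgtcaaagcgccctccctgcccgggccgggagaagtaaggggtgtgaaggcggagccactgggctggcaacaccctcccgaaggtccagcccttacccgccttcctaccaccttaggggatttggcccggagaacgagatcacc
ITGA2, chr5:52989102-52989401, + strand: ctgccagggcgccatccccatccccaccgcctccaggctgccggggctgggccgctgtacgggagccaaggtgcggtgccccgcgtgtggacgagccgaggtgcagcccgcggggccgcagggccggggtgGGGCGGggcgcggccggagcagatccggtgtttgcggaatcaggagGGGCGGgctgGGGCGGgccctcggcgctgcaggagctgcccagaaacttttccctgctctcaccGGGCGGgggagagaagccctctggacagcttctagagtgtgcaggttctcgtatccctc
ITGA11, chr15:68432114-68432413, - strand: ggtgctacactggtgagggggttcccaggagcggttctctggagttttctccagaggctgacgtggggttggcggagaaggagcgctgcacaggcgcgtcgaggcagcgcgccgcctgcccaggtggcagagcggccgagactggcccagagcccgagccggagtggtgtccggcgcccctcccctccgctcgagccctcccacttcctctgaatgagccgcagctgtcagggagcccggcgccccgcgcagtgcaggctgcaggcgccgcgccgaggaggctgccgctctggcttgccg
ITGB1, chr10:32958181-32958480, - strand: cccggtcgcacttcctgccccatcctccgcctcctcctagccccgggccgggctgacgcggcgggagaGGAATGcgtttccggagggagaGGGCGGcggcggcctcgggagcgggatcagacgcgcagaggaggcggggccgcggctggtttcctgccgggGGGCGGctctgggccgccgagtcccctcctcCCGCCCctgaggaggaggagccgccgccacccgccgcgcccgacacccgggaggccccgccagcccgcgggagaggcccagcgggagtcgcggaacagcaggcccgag
The ITGA2 promoter held 4 GC boxes and the ITGB1 promoter 3 GC boxes and 1 TEAD site, and these letters were not in the ITGA1 and ITGA11 windows. The ITGAV windows held none of the 3 motifs either, and ITGAV did not pass the test. Any part of these motifs in the results was not tested. Of the 10 members, 7 had 1 or more promoter entries. The ITGA5 promoter held 1 match to each of the 3 motifs, and AP-1 letters were in no other member's window. Over 35116 promoter windows of the same length, 45.0% held a GC box, 7.71% an AP-1 site and 14.0% a TEAD site. ITGB1 has a second entry further downstream, which held none of the 3 motifs.

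The 6 libraries held 12212378 to 14393292 counts on genes, of which 5.76% to 7.74% fell on mitochondrial genes. SQLE, the targeted gene, had 1713 ± 317 normalized counts in shControl and 217 ± 12.6 in shSQLE (SD, n = 3), normalized counts being scaled to a library of average effective size. Of 11 markers of the mesenchymal and osteoblast lineage, 6 passed the filter, among them VIM, RUNX2 and COL1A1, whereas the osteoblast genes SP7 and IBSP were at 0 in every library. Summed over this list, counts-per-million (CPM) values were 2824 to 3303 in shControl and 3078 to 3482 in shSQLE. Most of this sum was VIM, with a mean of 38664.7 normalized counts in shControl and 43442.5 in shSQLE (edgeR adjusted p = 0.589). S100A4 and COL1A1 were lower in shSQLE, with log2 fold changes of -1.50 (edgeR adjusted p = 0.0295) and -0.65 (adjusted p = 0.0452). CDH2, RUNX2 and TWIST1 did not pass. The sums were 6.37 to 8.22 and 7.01 to 8.57 CPM for 7 epithelial markers, 1.03 to 1.38 and 0.305 to 0.871 for 6 endothelial markers, and 0.343 to 0.437 and 0.152 to 0.365 for 7 blood markers, among which PTPRC, CD3E and HBB were at 0 throughout; their part in any result was not tested. The library of shControl replicate 1 stood apart from the other control libraries: its ratio to their mean followed the GC content of the transcript, with a median log2 value of -0.60 over 2128 genes under 40% GC and of 0.60 over 1993 genes at 60% GC or more. The calls and shares of the integrin subunits and the counts over gene lists are given with and without it, whereas the values of single ligands and partners include it.

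**Figure D1:**
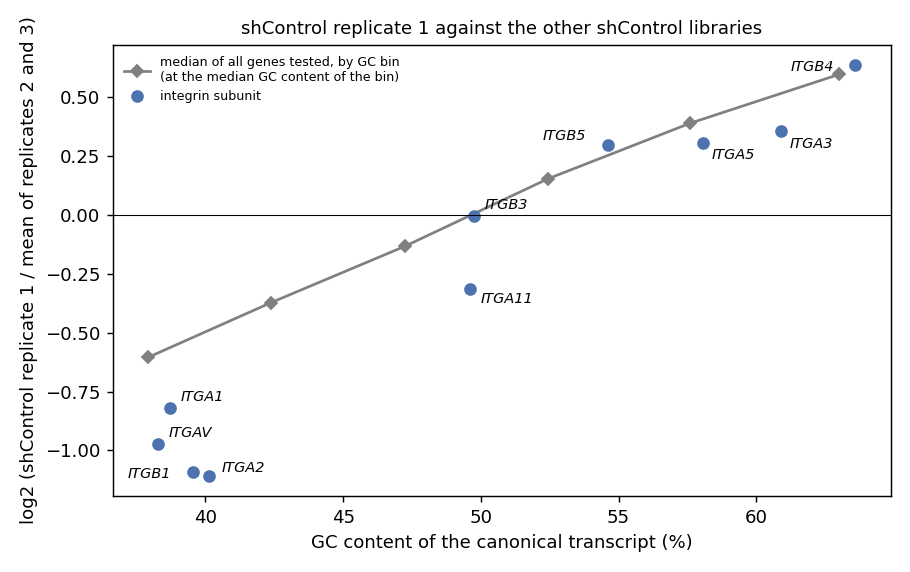
Log2 ratio of shControl replicate 1 to the mean of shControl replicates 2 and 3 (y axis) against the GC content of the canonical transcript (x axis, percent) for the 10 integrin subunits (points) and as the median of all genes tested in 6 bins of GC content (diamonds, at the median GC content of the bin). ITGA1, ITGA2, ITGAV and ITGB1, the 4 subunits lowest in GC content, sit between -1.11 and -0.82, and ITGB4, the highest in GC content, sits at 0.64.

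The integrin subunits lay on both sides of this trend's zero. The GC content was 38.3% for ITGAV, 38.7% for ITGA1, 39.5% for ITGB1 and 40.1% for ITGA2, and in these 4 genes shControl replicate 1 held 0.510, 0.567, 0.469 and 0.464 times the mean of the other controls. The ratio was 0.805 for ITGA11 (49.6% GC) and 0.995 for ITGB3 (49.7% GC). It was 1.23 for ITGB5 (54.6%), 1.24 for ITGA5 (58.1%), 1.28 for ITGA3 (60.9%) and 1.55 for ITGB4 (63.6%). The part of GC content in the differences between groups was not tested, but each fold change is set beside the same value without this library and with offsets that take out the trend on GC content and length.

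Across all genes, edgeR's quasi-likelihood test called 2.84% of the 12450 genes tested lower and 0.369% higher in shSQLE at a Benjamini-Hochberg adjusted p under 0.05. Of the 10 integrin subunits, 3 were lower (ITGA1, ITGA11 and ITGB4) and 0 were higher, and at an unadjusted p under 0.05 there were 7 lower and 0 higher, against 9.89% and 4.83% of all genes tested. DESeq2 called 5 lower and 0 higher, against 4.01% and 1.14% of the genes to which it gave an adjusted p. Leaving out shControl replicate 1 gave 7 lower and 0 higher, in a fit that called 18.3% of all genes tested lower and 15.6% higher. With GC content and length offsets there were again 7 and 0, where 8.66% and 12.1% of all genes were called. The log2 fold change was below 0 in 9 of the 10, with a median of -0.61, where the median of all genes tested was -0.01. In 6 of the 10 the highest shSQLE value was under the lowest shControl value, which held for 12.1% of all genes tested, and in 0 of the 10 was the order the other way round, which held for 10.0%. In bulk RNA, fewer cells that express a gene and less RNA per cell cannot be told apart.

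**Figure D2:**
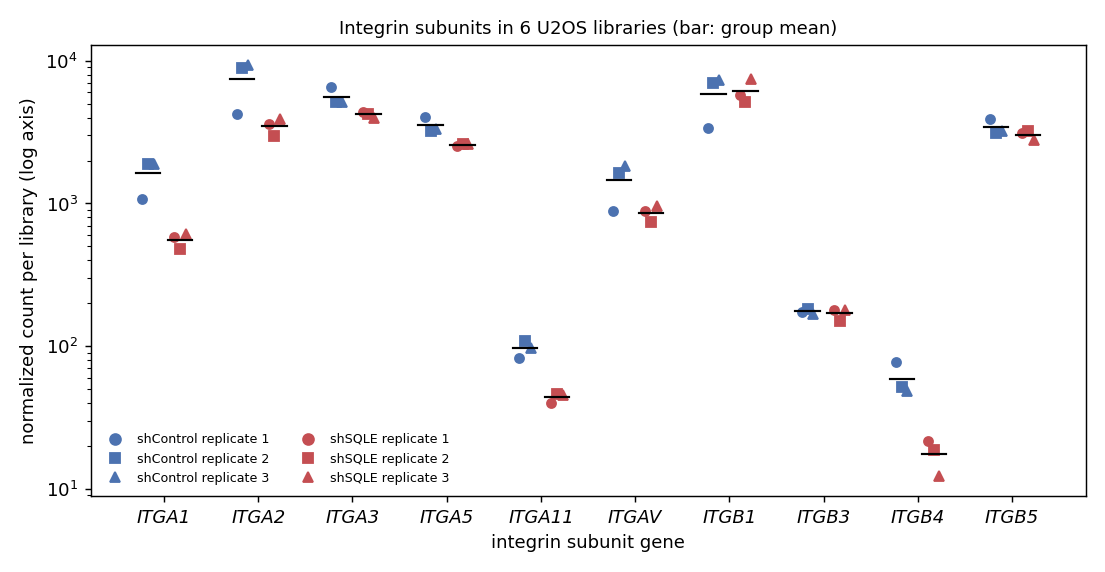
Normalized counts (y axis, log scale) of the 10 integrin subunits in the 3 shControl libraries (blue) and the 3 shSQLE libraries (red), with the replicate number as the marker shape and the group mean as a bar. The groups do not overlap for ITGA1, ITGA2, ITGA3, ITGA5, ITGA11 and ITGB4, and shControl replicate 1 (blue circle) sits below the other controls for ITGA1, ITGA2, ITGAV and ITGB1.

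ITGA1 encodes the alpha chain of a receptor that prefers basement membrane collagen. Its normalized counts in shControl replicates 1 to 3 were 1075, 1889 and 1905, against 580, 478 and 612 in shSQLE. All shSQLE libraries were low, and the groups did not overlap even at shControl replicate 1, the lowest control. The mean fell from 1623 ± 475 to 556 ± 69.7 (SD, n = 3 per group). In edgeR's quasi-likelihood fit its log2 fold change was -1.55 ± 0.23 (standard error), with an adjusted p of 0.0125. Without shControl replicate 1 the log2 fold change was -1.77 (standard error 0.10, adjusted p = 1.04e-07), and with GC content and length offsets it was -1.34. ITGA1 spans PELO, a ribosome rescue factor on the same strand, with which it shares 499 exonic bases. PELO had 964, 903 and 878 normalized counts in shControl and 825, 778 and 674 in shSQLE, a log2 fold change of -0.27 (adjusted p = 0.357). How reads in the shared bases were counted is not given in the sources used here. RPL17P21, a processed pseudogene on the same strand that was not counted, shares 571 exonic bases with ITGA1. Non-coding genes on the opposite strand, not analysed here, also share exonic bases with subunits. The shared bases were 1385 (ITGA2-AS1) and 109 (PELO-AS1) for ITGA1, 401 (ITGB1-DT) for ITGB1, 203 for ITGAV and 48 (GPR84-AS1) for ITGA5. The strand setting is not given either, so reads of these partners cannot be told apart.

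ITGA11 encodes a collagen I receptor chain of mesenchymal cells. It was a low transcript, with 83.1, 109 and 97.1 normalized counts in the shControl replicates and 40.1, 46.3 and 45.2 in the shSQLE replicates. The 3 shSQLE values lay close together and below every control. The mean fell from 96.6 ± 13.1 to 43.9 ± 3.29 (SD, n = 3 per group). This was a log2 fold change of -1.14 ± 0.18 (standard error), which edgeR's quasi-likelihood fit gave an adjusted p of 0.0174. It was -1.23 without shControl replicate 1 and -0.99 with GC content and length offsets, past the threshold in both fits. No counted gene overlapped ITGA11 in the annotation.

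ITGA2 encodes the alpha chain of the main receptor for fibrillar collagen on many cells. It was the most abundant of the collagen-binding alpha subunits in both groups. Its normalized counts in shControl replicates 1 to 3 were 4243, 8956 and 9327, against 3579, 2986 and 3906 in shSQLE. The groups did not overlap, but the gap from shControl replicate 1 to the highest shSQLE library was small beside the gap between the control libraries. The log2 fold change was -1.11 (standard error 0.28) and did not pass (edgeR adjusted p = 0.0896). It passed without shControl replicate 1 (-1.39, adjusted p = 8.26e-07), with GC content and length offsets (-0.90, adjusted p = 0.000723) and with DESeq2 (adjusted p = 0.00382). Of these 3 collagen-binding alpha subunits, 2 thus passed with all libraries, where 2.84% of all genes tested were called lower. All 3 passed without shControl replicate 1, where 18.3% were called lower. Only ITGA1 of the 3 passed without shControl replicate 2 or without shControl replicate 3, and none did without any 1 shSQLE replicate.

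ITGA3 (ENSG00000005884, chromosome 17, 50055968 to 50090481) encodes the alpha chain of a laminin receptor, and ITGA5 (ENSG00000161638, chromosome 12, 54395261 to 54419266) that of the classical fibronectin receptor. ITGA3 had 6557, 5137 and 5119 normalized counts in the shControl replicates and 4384, 4260 and 3988 in the shSQLE replicates. ITGA5 had 4060, 3229 and 3334 in shControl and 2522, 2630 and 2593 in shSQLE. In both genes the shSQLE libraries lay below all controls, and shControl replicate 1 was the highest library. The log2 fold changes were -0.41 for ITGA3 (standard error 0.13, adjusted p = 0.163) and -0.46 for ITGA5 (standard error 0.12, edgeR adjusted p = 0.0945), neither past the threshold. Without shControl replicate 1 both were nearer to 0 and passed, at -0.28 (adjusted p = 0.0127) and -0.35 (adjusted p = 0.00417).

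ITGAV (ENSG00000138448, chromosome 2, 186590010 to 186680901) encodes the alpha chain of the vitronectin receptors. It had 889, 1647 and 1843 normalized counts in the shControl replicates and 884, 742 and 953 in the shSQLE replicates. The groups overlapped, since shControl replicate 1 lay within the range of the shSQLE libraries. At -0.76 ± 0.26 (standard error), the log2 fold change did not pass (adjusted p = 0.203). It was -1.02 without shControl replicate 1 (standard error 0.10, adjusted p = 2.13e-05) and -0.57 with GC content and length offsets (adjusted p = 0.00171).

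Among the beta subunits, ITGB4 (ENSG00000132470, chromosome 17, 75721328 to 75757818) had the lowest log2 fold change of the 10 genes. It had 77.4, 51.5 and 48.1 normalized counts in the shControl replicates and 21.5, 18.7 and 12.3 in the shSQLE replicates, from 12 to 22 raw counts in shSQLE. The highest shSQLE library was below the lowest control. The mean fell from 59.0 ± 16.0 to 17.5 ± 4.72 (SD, n = 3 per group). Its log2 fold change was -1.73 ± 0.30 (standard error, edgeR adjusted p = 0.0228), and it was -1.49 without shControl replicate 1, the highest library. The span of ITGB4 overlaps that of GALK1, galactokinase, on the opposite strand, but no exonic base is shared; the log2 fold change of GALK1 was 0.04 (adjusted p = 0.977). ITGA6, the obligate partner of ITGB4, had 1312, 2593 and 2660 normalized counts in the shControl replicates and 1624, 1311 and 1700 in the shSQLE replicates, which overlapped (log2 fold change -0.50, adjusted p = 0.442).

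ITGB1, the partner of most of the alpha chains, had 3356, 6970 and 7348 normalized counts in the shControl replicates and 5791, 5186 and 7471 in the shSQLE replicates. Its shSQLE values lay between the lowest and the highest control, apart from shSQLE replicate 3, which was the highest library of all. The log2 fold change was 0.06 with a standard error of 0.28 (adjusted p = 0.955), and -0.22 without shControl replicate 1 (standard error 0.12, adjusted p = 0.182), so that its sign turned while neither fit passed. ITGB3 (ENSG00000259207, chromosome 17, 47253827 to 47313743), of the vitronectin receptor of osteoclasts and platelets, had 174, 183 and 168 normalized counts in shControl and 178, 151 and 179 in shSQLE (log2 fold change -0.05, standard error 0.14, adjusted p = 0.924). Another gene that shares 2266 exonic bases with ITGB3 (ENSG00000259753) had 0 counts in each library. ITGB5 (ENSG00000082781, chromosome 3, 124761948 to 124901418), the other vitronectin receptor chain, had 3912, 3139 and 3237 in shControl and 3125, 3221 and 2788 in shSQLE (log2 fold change -0.17, standard error 0.12, adjusted p = 0.616). The groups overlapped in all 3 of these beta subunits. A test that was not passed does not show that their levels were equal.

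**Figure D3:**
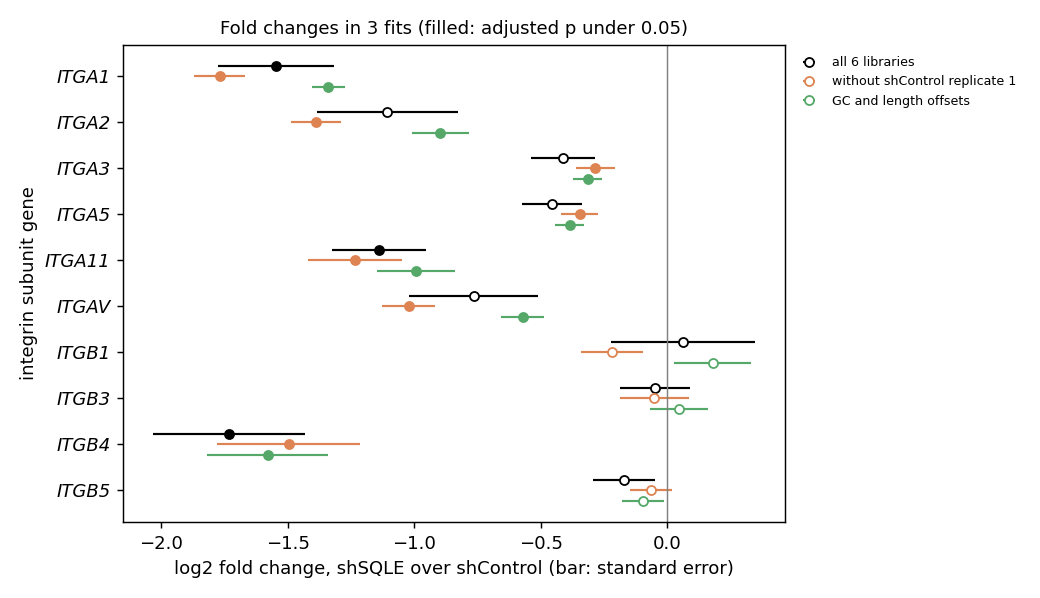
Log2 fold changes (x axis, shSQLE over shControl, with the standard error as the bar) of the 10 integrin subunits in the fit of all 6 libraries (black), without shControl replicate 1 (orange) and with GC content and length offsets (green); filled points passed an adjusted p of 0.05. Filled points number 3 in the first fit and 7 in each of the other two, and ITGB1, ITGB3 and ITGB5 are open in all 3.

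The 3 calls depended on which library was left out. All 3 held without shControl replicate 1, in a fit that called 4264 genes in all. Without any 1 shSQLE replicate edgeR called 0 of the 10 subunits, and 109 genes in all. In the fits without 1 shSQLE replicate the log2 fold changes were -1.60 to -1.45 for ITGA1, -1.18 to -1.08 for ITGA11 and -1.90 to -1.52 for ITGB4. Without shControl replicate 2 only ITGA1 was called, in a fit that called 163 genes in all. Without shControl replicate 3 only ITGA1 and ITGB4 were called, among 211 genes in all.

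Levels of different genes were compared per length, in TPM (counts per length, scaled to the same total in each library) over the canonical transcript. In shControl, ITGB1 had 238 ± 111 TPM, ITGA3 165 ± 2.71, ITGA2 144 ± 67.7, ITGA5 120 ± 4.65 and ITGB5 111 ± 4.53 (SD, n = 3). Of these, the ranges of ITGB1, ITGA3 and ITGA2 overlapped, and so did those of ITGA2 and ITGA5, while ITGA5 and ITGB5 were apart. ITGAV at 31.2 ± 13.8 and ITGA1 at 22.6 ± 8.93 overlapped, ITGB3 stood at 4.29 ± 0.597, and ITGB4 at 1.42 ± 0.169 and ITGA11 at 1.40 ± 0.345 overlapped. In shSQLE the order was ITGB1 (230 ± 62.3), ITGA3 (119 ± 4.79), ITGB5 (94.4 ± 0.342), ITGA5 (83.9 ± 6.49), ITGA2 (61.9 ± 12.6), ITGAV (17.0 ± 3.29), ITGA1 (7.20 ± 1.37), ITGB3 (3.95 ± 0.610), ITGA11 (0.596 ± 0.0673) and ITGB4 (0.406 ± 0.0895). There the ranges of no neighbours in this order overlapped. Within single libraries, ITGA2 took the fifth place in shControl replicate 1 and in all 3 shSQLE libraries, and the second place in shControl replicates 2 and 3.

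The makeup of the alpha subunits that pair with ITGB1 was taken as shares within each library. These shares do not depend on library size, but shControl replicate 1 still stood apart in some of them. Of the summed per-length levels of ITGA1, ITGA2, ITGA3, ITGA5, ITGA11 and ITGAV, ITGA1 made up 3.26%, 5.22% and 5.11% in the shControl replicates and 2.53%, 2.20% and 2.69% in the shSQLE replicates. ITGA11 made up 0.286% ± 0.0282 in shControl and 0.206% ± 0.0199 in shSQLE (SD, n = 3 each). In both genes the groups were apart, at p = 0.1 in a two-sided exact permutation test, the smallest p that 3 libraries against 3 allow, and 0.3 adjusted over the 6 subunits. The shares of ITGA2 (28.6% ± 9.50 against 21.2% ± 2.35), ITGA3 (35.0% ± 7.52 against 41.2% ± 2.41), ITGA5 (25.4% ± 4.92 against 29.1% ± 1.37) and ITGAV (6.20% ± 1.83 against 5.83% ± 0.592) overlapped between groups. In shControl replicates 1 to 3, ITGA2 made up 17.6%, 33.9% and 34.3%. Of the 4 beta subunits, ITGB4 made up 0.451% ± 0.234 of its pool in shControl and 0.129% ± 0.0439 in shSQLE, without overlap (exact permutation p = 0.1, adjusted p = 0.4 over 4 subunits), whereas the shares of ITGB1, at 64.2% ± 12.9 and 69.3% ± 5.35, and of ITGB3 and ITGB5 overlapped. Without shControl replicate 1 the difference in share, shSQLE minus shControl, turned from 5.01 to -2.46 percentage points for ITGB1, from -4.62 to 2.54 for ITGB5 and from -0.0645 to 0.104 for ITGB3. It went from -0.322 to -0.188 for ITGB4, from -7.34 to -12.8 for ITGA2, from 6.20 to 10.5 for ITGA3, from 3.65 to 6.49 for ITGA5 and from -0.370 to -1.41 for ITGAV, while it was -2.69 for ITGA1 and -0.0903 for ITGA11. Summed over the 10 subunits, CPM values were 1812, 2322 and 2405 in the shControl replicates and 1565, 1462 and 1672 in the shSQLE replicates, 0.719 times the control mean. The exact permutation p was 0.1, the smallest possible. Nothing is read from it, since the 10 were chosen with earlier results of these data known. The highest shSQLE library was below the lowest control.

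Since shControl replicate 1 moved genes of like GC content together, each of the 7 other subunits was also divided, within each library, by the one of ITGB1, ITGB3 and ITGB5 nearest to it in GC content. This ratio was chosen after the values were seen, and the 3 references are the subunits that had not passed an unadjusted p of 0.05 while the 7 divided by them had. That the ratios were lower in shSQLE was therefore fixed by the choice, and they are given as a description without a test. The ITGA2 to ITGB1 ratio, per length, was 0.602, 0.612 and 0.604 in the shControl replicates and 0.294, 0.274 and 0.249 in the shSQLE replicates. The control libraries lay close together in this ratio, with a coefficient of variation of 0.845% against 37.8% for the normalized counts of ITGA2. For ITGA1, ITGA11 and ITGB4 it stayed at 11.4%, 11.9% and 14.8%, against 29.2%, 13.6% and 27.1% for their normalized counts. The mean ratio was 0.606 ± 0.00512 in shControl and 0.272 ± 0.0227 in shSQLE (SD, n = 3). The ITGA1 to ITGB1 ratio was 0.111, 0.0943 and 0.0902 in shControl and 0.0348, 0.0321 and 0.0285 in shSQLE, or 32.2% of the control mean. The ITGAV to ITGB1 ratio, 0.141, 0.125 and 0.133 against 0.0810, 0.0759 and 0.0677, was also apart (56.3%), although the normalized counts of ITGAV overlapped.

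The fibronectin receptor chain ITGA5 held 1.08, 1.07 and 1.08 times the per-length level of ITGB5 in the shControl replicates and 0.843, 0.853 and 0.972 times in the shSQLE replicates (82.5% of the control mean). For the laminin receptor chain ITGA3 the ratio to ITGB5 was 84.9% of the control mean, for ITGA11 against ITGB3 47.5%, and for ITGB4 against ITGB5 33.6%. In all 7 ratios the groups were apart, with shSQLE lower. The same held for 13.6% of the 12444 genes that could be set against these references, but nothing is read from this contrast, since the 7 were chosen as lower. A ratio within a library shows that 2 transcripts changed unequally, not which of them changed.

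**Figure D4:**
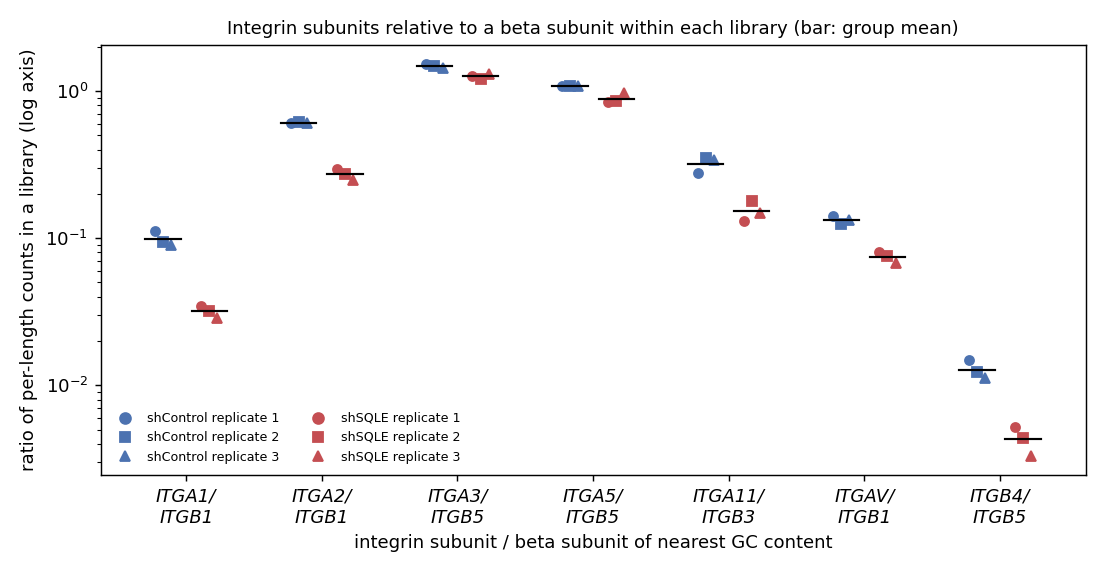
Ratio of the per-length counts of 7 integrin subunits to those of the beta subunit nearest in GC content (y axis, log scale) in each shControl library (blue) and shSQLE library (red), with the group mean as a bar. The 3 controls of the ITGA2 to ITGB1 ratio sit between 0.602 and 0.612 and the 3 shSQLE libraries between 0.249 and 0.294.

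Ligands were set beside the receptors by the class each receptor binds. Of 17 collagen genes, 13 were tested and 12 had a log2 fold change below 0, with a median of -0.68. Past the adjusted p, 7 were lower and 0 higher, where 2.84% of all genes tested were called lower and 0.369% higher. These shares of all genes also apply to the calls with all libraries in each list below. COL5A1, a regulator of fibril assembly, had 1167, 1252 and 1306 normalized counts in the shControl replicates and 288, 295 and 300.1 in the shSQLE replicates (log2 fold change -2.08). COL6A1 and COL6A2, chains of the beaded filament collagen VI, fell by 1.70 and 1.64 on the log2 scale, and COL6A3 by 0.85. COL1A1, a chain of the main bone collagen, fell from a mean of 164 ± 6.63 to 104 ± 4.13 (normalized counts, SD, n = 3 per group). COL5A3 and COL16A1 were also lower, at -2.56 and -1.08. The 3 collagen-binding alpha chains had log2 fold changes of -1.55, -1.11 and -1.14 and their partner ITGB1 one of 0.06, and all 4 values lay within the range of the collagens. COL13A1, a transmembrane collagen, was the 1 collagen with a positive value, 0.29, and did not pass.

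Of 12 laminin genes, 10 were tested, all 10 had a log2 fold change below 0, with a median of -0.53, and 4 passed. LAMA3 encodes a chain of laminin-332, a ligand of the ITGA3 and ITGA6-ITGB4 receptors. It had 173, 246 and 258 normalized counts in shControl and 109, 89.7 and 110.0 in shSQLE (log2 fold change -1.14, adjusted p = 0.0211), without overlap. LAMA4, a chain of endothelial and mesenchymal laminins, fell from 130.2 ± 19.0 to 20.0 ± 8.02 (SD, n = 3 each). LAMA5, of the widely made laminin-511, fell from 1155 ± 151 to 733 ± 12.4 (log2 fold change -0.66). Of their receptors, ITGB4 fell, and ITGA3 and ITGA6 had -0.41 and -0.50 without passing.

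Ligands of the RGD receptors went both ways. Of 20 genes, 16 were tested, 8 had a negative and 8 a positive log2 fold change, and 4 were lower and 2 higher past the adjusted p. FN1, fibronectin, the ligand of the ITGA5 receptor, had 6745, 9189 and 9074 normalized counts in the shControl replicates and 1132, 919 and 1350 in the shSQLE replicates. The log2 fold change was -2.88 ± 0.19 (standard error, edgeR adjusted p = 0.000548), beside -0.46 for ITGA5. L1CAM and the matricellular CCN3 fell as well (log2 fold changes -2.47 and -2.57), and so did TNC, tenascin C (-1.08). CCN1 and CCN2, matricellular ligands of ITGAV receptors, rose by 0.70 (adjusted p = 0.00968) and 0.52 (adjusted p = 0.0350). CCN1 had 2729, 2685 and 2634 normalized counts in shControl and 4316, 4657 and 4102 in shSQLE, without overlap. The ligands were listed with earlier results of these data known, so that their direction is a description. Without shControl replicate 1 the calls were 12 lower and 1 higher for collagens, 7 and 0 for laminins, and 6 and 2 for RGD ligands, in the fit that called 18.3% of all genes lower and 15.6% higher.

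**Figure D5:**
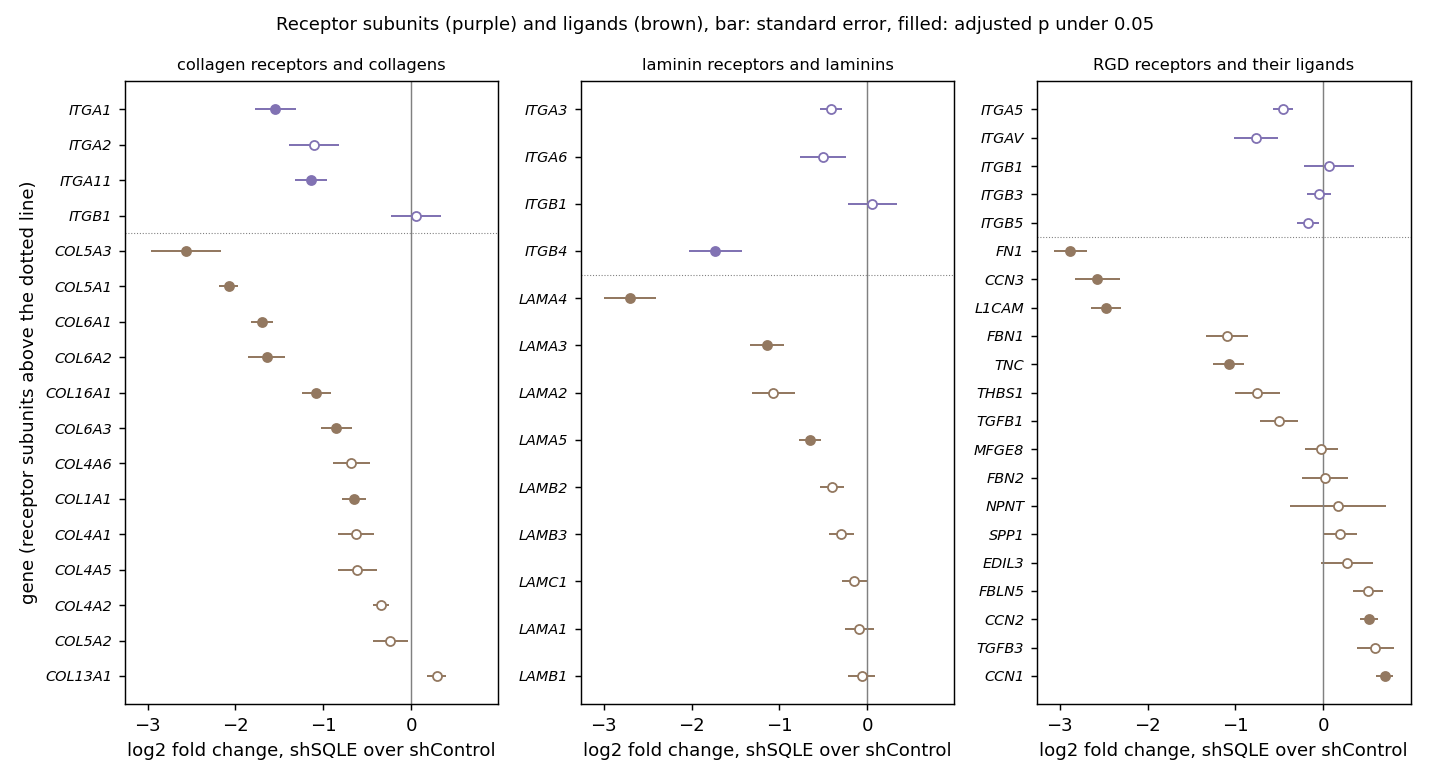
Log2 fold changes (x axis, shSQLE over shControl, with the standard error as the bar) of receptor subunits (purple, above the dotted line) and of the ligand genes tested (brown, 1 laminin not shown) for collagen, laminin and RGD receptors; filled points passed an adjusted p of 0.05 in the fit of all 6 libraries. ITGB1, shown in each panel, sits at 0.06, while FN1 reaches -2.88 and CCN1 0.70.

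The other 16 integrin subunit genes gave 9 that passed the filter, with a median log2 fold change of -0.41; 1 was lower and 0 higher past the adjusted p, against 3 and 0 of the 10 described above. The other subunits gave 3 lower and 1 higher without shControl replicate 1, where 18.3% of all genes were called lower and 15.6% higher. With GC content and length offsets they gave 2 lower and 2 higher, where 8.66% and 12.1% of all genes were called. ITGB2, the beta chain of leukocyte integrins, had 56.6, 53.4 and 61.8 normalized counts in the shControl replicates and 32.3, 24.6 and 24.7 in the shSQLE replicates (log2 fold change -1.07, adjusted p = 0.0360). ITGAX, one of its alpha partners, had a log2 fold change of -0.78 (adjusted p = 0.129). PTPRC and CD3E, which mark leukocytes, were at 0 in every library. ITGA9, the alpha chain of a tenascin C receptor, was the subunit with the highest value, at 9.24, 6.33 and 4.90 normalized counts in shControl and 20.6, 14.8 and 29.8 in shSQLE (log2 fold change 1.67, adjusted p = 0.0751), and did not pass. ITGA10, the remaining collagen-binding alpha chain, had a log2 fold change of -0.41 (adjusted p = 0.352), with 112, 118 and 125 normalized counts in shControl and 91.1, 71.0 and 105 in shSQLE.

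Genes that act on integrins inside the cell differed in kind. Of 37 adaptors and activators of adhesion sites, 36 were tested, 0 were lower and 1 was higher past the adjusted p, and the median was -0.02. At an unadjusted p under 0.05, 3 were lower and 2 higher, where 9.89% of all genes tested were lower and 4.83% higher. TNS1, tensin 1, which binds beta chain tails in fibrillar adhesions, rose, from a mean of 99.0 ± 10.4 to one of 221 ± 12.9 normalized counts (SD, n = 3 per group), by 1.16 on the log2 scale (edgeR adjusted p = 0.00632). RAP1A, a small GTPase of integrin activation, and PLEC, plectin, which links ITGB4 to keratin filaments, had 0.57 (adjusted p = 0.0538) and -0.41 (adjusted p = 0.0701). Of 9 genes of folding and processing, 8 had a negative value and 2 passed. HSP90B1, the endoplasmic reticulum chaperone on which many integrin chains depend, had 28686, 34750.2 and 35289 normalized counts in shControl and 12743, 12969 and 13871 in shSQLE (log2 fold change -1.32, adjusted p = 0.00157). HSPA5, the general chaperone of that compartment, fell by 1.66. CANX, calnexin, had -0.62 (adjusted p = 0.145). Without shControl replicate 1, 7 adaptors were lower and 4 higher, and 5 folding and processing genes were lower, in the fit that called 18.3% of all genes lower and 15.6% higher.

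For each of the 3 subunits called, the genes whose pattern over the 6 libraries was most like it were found by the smallest root mean square difference between log2 CPM values centred per gene. For ITGA1 these were FGF2 (0.09), EDNRA (0.10) and PAPPA (0.11), for ITGA11 they were TLCD2 (0.07), XYLT1 (0.09) and RNF145 (0.10), and for ITGB4 they were ISG20 (0.09), COL6A2 (0.12) and PLAAT4 (0.13). Their log2 fold changes, which the choice of likeness fixes to be near those of the 3 subunits, reached -1.85 for PLAAT4. COL6A2 is among the collagens described above, and like ITGB4 it was highest in shControl replicate 1.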

How the data were processed

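Poly(A) RNA of 6 U2OS libraries was sequenced as read pairs by the authors. Per the labels, they used fastp 0.20.0, STAR 2.7.9a, featureCounts 2.0 and hg38, and they deposited the raw count of each gene, not normalized. The annotation release, the strand setting and how multi-mapped reads were handled are not given in the sources used here. Groups came from the sample titles. Counts were analysed in R 4.3.3 with edgeR 4.0.16 (filterByExpr, TMM, quasi-likelihood test, a single term for the hairpin), p-values being adjusted by Benjamini-Hochberg over all 12450 genes tested, with a threshold of 0.05. The standard error is the size of the log2 fold change divided by the square root of F. Lengths, GC content and overlaps came from GENCODE v44, whose build is that of the counts; 32 identifiers matched no symbol. Offsets for GC content and length were smooth trends per library (mgcv 1.9.3); they also remove any difference between groups that follows these properties. DESeq2 1.42.0, other size factors, filters and thresholds, a replicate block and leaving out each library were the alternatives.

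The members and lists were chosen with earlier results of these data known. Named are all members, genes overlapping them, ITGA6, SQLE, the 3 genes of smallest p and all called genes of each list, and the 3 genes most like each called member; 1 called laminin is not reported here by name, and a few more genes were named after their values were seen (COL13A1, ITGA10 and the marker genes). Replicate libraries were compared for copies: counts differed by 2.83 to 63.6 times the variance of sampling (chi-square per degree of freedom), so none was a copy. Counts were also simulated with known changes, and the fit was checked on them.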

Additional observations from a re-analysis of the deposited data

How the results depend on the processing

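The direction of the 3 called subunits and of ITGA2, ITGA3, ITGA5 and ITGAV held in every alternative run; ITGB1 changed sign without shControl replicate 1 and without shSQLE replicate 3, and ITGB3 with GC content and length offsets and without shSQLE replicate 2, none of them past the threshold. With GC content and length offsets 7 subunits were lower past the adjusted p, with a median of -0.48, and 2582 genes in all; the median over all genes tested was 0.06 there, against -0.01. DESeq2 called 5 subunits and 714 genes. An adjusted p of 0.1 in edgeR gave 5 subunits, and the share of all genes at that threshold is not given here. Leaving out 1 library in turn gave 0 to 7 subunits lower, a median between -0.68 and -0.52, and 109 to 4264 genes. The cause of these shifts was not tested, though fits without a library hold fewer samples. With the union of exons as length, the difference in the share of ITGB4 in its pool was -0.639 in place of -0.322 percentage points. The deviations of same-numbered libraries went both ways, with r = 0.138, -0.433 and 0.543 for replicates 1, 2 and 3. Of the 6 libraries, 3 correlated best with their own number. With the replicate block 4 subunits were lower, ITGA2 with an edgeR adjusted p of 0.0452 being added, and 396 genes were called. Depth limits ITGB4, ITGA11 and the subunits under the filter.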

Other observations

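Other proteins that stand beside integrins at the membrane were measured as well. Of 13 matrix receptors that are not integrins, 12 were tested and 1 was lower and 0 higher past the adjusted p of edgeR's quasi-likelihood test. There were 2 lower and 2 higher without shControl replicate 1, where 18.3% of all genes were called lower and 15.6% higher. With GC content and length offsets there were 2 lower and 3 higher, where 8.66% and 12.1% of all genes were called. SDC2, syndecan 2, a heparan sulfate receptor that acts with fibronectin receptors, had 172, 206 and 200.1 normalized counts in the shControl replicates and 115, 106 and 106 in the shSQLE replicates (log2 fold change -0.82, adjusted p = 0.0232). CD44, the hyaluronan receptor, had a log2 fold change of -0.42 (adjusted p = 0.0873), and LRP1 -0.25 (adjusted p = 0.426).

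Of 10 tetraspanins and other lateral partners, 0 passed the adjusted p, with 3 lower and 0 higher at an unadjusted p under 0.05. At that unadjusted p, 9.89% of all genes tested were lower and 4.83% higher, which also applies to trafficking below. CD47, the partner of ITGB3 receptors that binds thrombospondin, had -0.40 (adjusted p = 0.124), CD82 -0.67 (adjusted p = 0.129) and CD9 -0.33 (adjusted p = 0.195). Of 16 genes of integrin trafficking, 14 were tested and 0 passed (1 lower and 1 higher at an unadjusted p under 0.05), with ARF6 at -0.23 (adjusted p = 0.317), NUMB at -0.28 (adjusted p = 0.379) and RAB4A at 0.43 (adjusted p = 0.159). When shControl replicate 1 was left out, the counts were 3 lower and 4 higher for the lateral partners and 5 lower and 2 higher for trafficking, where 18.3% of all genes were called lower and 15.6% higher, and the median of the lateral partners turned from -0.15 to 0.19.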
